A study of Homo sapiens with 9 samples.

Results

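The transcripts described here belong to 10 genes that activate or inactivate cortisol, receive it or respond to it: HSD11B1, HSD11B2, NR3C1, TSC22D3, FKBP5, PER1, SGK1, DUSP1, KLF9 and ZBTB16. All probe sets whose annotated gene symbol is one of these 10 were taken, out of 19775 genes named on the arrays. The set was put together because HSD11B1 was high in B6TC cells alone, and the question was whether targets of the glucocorticoid receptor were high there too. The set was thus chosen by the measured levels of HSD11B1 in B6TC, which are given below as a description with no test. Of the 10 genes, 9 had probe sets that name a single gene, 23 probe sets in all. PER1 had only 4 probe sets that also name the microRNA gene MIR6883 within it, and their values are given under both names and left out of all counts.

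RNA from 3 human breast cancer cell lines was hybridized to 9 Affymetrix U133 Plus 2.0 microarrays, 3 for each line, on which groups of short probes called probe sets each report on a transcript. B6TC is a GFP-positive, estrogen-independent line that the labels describe as a fusion of the other lines. MDA-MB-231/GFP/Neo (MDA-MB-231 below) is an estrogen receptor negative line, here 1 GFP-expressing clone selected with G418. ZR-75-1/GFP/puro (ZR-75-1 below) is an estrogen receptor positive line, here a pool of puromycin-resistant cells. All lines were grown in McCoy's medium with fetal bovine serum, none was given a glucocorticoid or a receptor antagonist, and the hormone in the serum was not measured. The arrays of a line are technical replicates, so the p-values measure only the spread between arrays and not between cultures. In RNA from whole cultures, fewer cells with a transcript and less of it per cell cannot be told apart.

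Cortisol circulates together with cortisone, which does not activate the receptor. 11β-hydroxysteroid dehydrogenase type 1, the product of HSD11B1, turns cortisone back into cortisol inside the cell, and type 2, the product of HSD11B2, does the reverse. Cortisol binds the glucocorticoid receptor, encoded by NR3C1, which then moves to the nucleus, induces genes such as TSC22D3, FKBP5 and PER1 through response elements in the DNA, and represses many inflammatory genes. HSD11B1 is best known from liver and fat, and HSD11B2 from kidney.

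The values are on the log2 scale, so that a difference of 1 is a 2-fold difference. Array medians were 4.89 to 4.96, and 33.9% to 34.8% of probe sets were at 6 or more. A probe set was tested where it reached 6 on at least 3 of the 9 arrays, which 21095 of 54675 did. ESR1, the estrogen receptor gene, was at 3.50, 3.53 and 4.26 in B6TC, at 3.27, 3.32 and 3.35 in MDA-MB-231 and at 10.25, 10.09 and 10.14 in ZR-75-1 at probe set 205225_at, which was chosen after its values were seen. The third B6TC array stood above the other B6TC arrays at 9 of 10 luminal epithelial markers, by up to 4.07 for TFF1, and at 1 of 6 mesenchymal markers. Poly-A control transcripts, which are added to the RNA before labeling, averaged 9.08 ± 0.04 on the B6TC arrays (SD, n = 3), 5.68 ± 0.02 on those of MDA-MB-231 and 7.54 ± 0.02 on those of ZR-75-1, and the part of this in any result was not tested.

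HSD11B1 was detected well above the middle of the array in B6TC and below it in the other lines. Its single probe set, 205404_at, was at 8.14, 8.33 and 7.995 on the B6TC arrays. MDA-MB-231 had 4.22, 4.56 and 4.44 there, and ZR-75-1 had 3.98, 3.67 and 3.79. No B6TC array came near those of either other line. The mean was higher in B6TC by 3.75 than in MDA-MB-231 (13.5-fold) and by 4.34 than in ZR-75-1 (20.3-fold), and since the other lines were near background these folds may understate the difference. HSD11B1 stood at the 84.2 to 86.7 percentile of all probe sets in B6TC, at 38.3 to 43.5 in MDA-MB-231 and at 27.8 to 33.5 in ZR-75-1. On the third B6TC array, which had the highest luminal markers, HSD11B1 was at its lowest of the 3. HSD11B1 passed the filter only through B6TC, and the difference of 0.59 between MDA-MB-231 and ZR-75-1, both below that level, is given with no test.

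The 120 bases before the RefSeq start of HSD11B1 are shown because they lie directly upstream of the first transcribed base (GRCh38.p14, chr1:209686059-209686178, plus strand).
HSD11B1: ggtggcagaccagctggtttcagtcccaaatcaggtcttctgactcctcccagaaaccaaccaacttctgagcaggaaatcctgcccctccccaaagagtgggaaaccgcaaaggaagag
Neither the receptor's response element, searched as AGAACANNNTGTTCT, nor its half-site, searched as AGAACA on both strands, was found in the window of 250 bases before to 50 after this start, so no letter is in capitals. RefSeq windows of this kind were at hand for 8 of the 10 genes, 20 windows in all. The whole element was in 0 of the 20, and in 1 of 35116 windows of all genes. The half-site was found in 2 of the 20, against 14.8% of all windows.

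**Figure D1:**
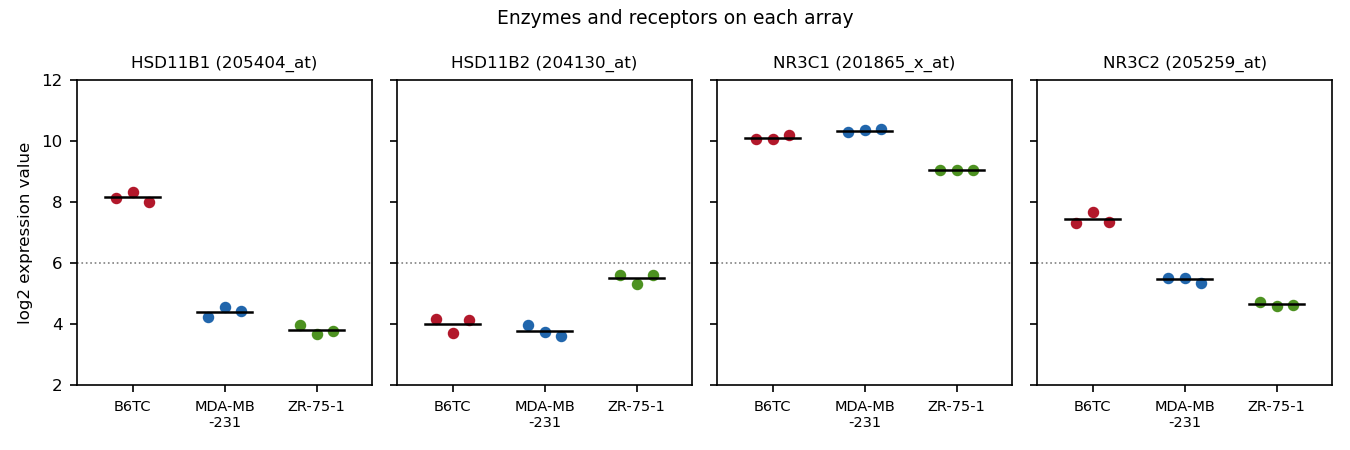
Log2 expression values (vertical axis) of HSD11B1, HSD11B2, NR3C1 and NR3C2 on the 3 arrays of each line, B6TC on the left; points are arrays, bars are means and the dotted line is the filter level of 6. HSD11B1 and NR3C2 lie above 6 in B6TC alone, HSD11B2 below 6 in all lines, and NR3C1 is high in all lines.

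Markers of fat and liver cells, for which HSD11B1 is best known, were low in B6TC. Of 5 adipocyte and 5 hepatocyte markers, 0 had a mean of 6 or more in B6TC, and the mean over the list on a B6TC array was 4.19 to 4.22 for adipocytes and 4.46 to 4.67 for hepatocytes. Of the 6 measured leukocyte markers 0 reached 6 as well. The single endothelial marker of 5 that did, PECAM1, was at 6.78, 6.54 and 6.73 in B6TC and at a like level of 6.59, 6.69 and 6.77 in MDA-MB-231. The single osteoblast marker of 4, RUNX2, a transcription factor of bone, reached 6 in every line.

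The 5 genes whose pattern over the 9 arrays lay nearest to that of HSD11B1, of 10750 others, were CARD16, TM4SF18, RNF128, SLC14A1 and MMP3. Likeness was the root mean square difference of the log2 values after centering each gene, which was 0.16 for CARD16 and 0.27 for MMP3. CARD16 encodes a small caspase recruitment domain protein, TM4SF18 a membrane protein, RNF128 a ubiquitin ligase, SLC14A1 a urea transporter and MMP3 the matrix protease stromelysin. CARD16 averaged 6.97 in B6TC, against 3.42 in MDA-MB-231 cells and 2.73 in ZR-75-1 cells. RNF128 averaged 7.94 in B6TC, against 3.83 in MDA-MB-231 cells and 3.10 in ZR-75-1 cells. The search ran over many genes and is a description of these arrays.

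HSD11B2, the enzyme that inactivates cortisol, did not pass the filter in any line and was not tested. Probe set 204130_at was at 4.16, 3.71 and 4.13 in B6TC, at 3.97, 3.75 and 3.60 in MDA-MB-231 and at 5.60, 5.32 and 5.60 in ZR-75-1. The B6TC and MDA-MB-231 arrays overlapped, and all ZR-75-1 arrays stood above both without reaching 6. H6PD encodes the enzyme that supplies the cofactor with which 11β-hydroxysteroid dehydrogenase type 1 makes cortisol. It was named after its values were seen, and was at 6.44, 6.61 and 6.47 in B6TC, at 6.22, 6.31 and 6.34 in MDA-MB-231 and at 6.16, 6.07 and 6.02 in ZR-75-1. H6PD was higher in B6TC by 0.22 than in MDA-MB-231 (standard error 0.061, limma adjusted p = 0.00948) and by 0.42 than in ZR-75-1 (limma adjusted p = 8.35e-05), both well under 2-fold.

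Enzymes that make cortisol from cholesterol were not detected at the filter level. Probe sets of STAR, CYP11A1, CYP17A1, HSD3B1, HSD3B2 and CYP11B1 were all below it, and CYP21A2 was not analysed here. Of 21 genes on a list of glucocorticoid synthesis and metabolism, 9 were tested, 10 missed the filter and 2 were not analysed. Against MDA-MB-231, 6 of the 9 were higher in B6TC, 2 lower and 1 not different by the test, with a median difference of 0.22. Over all tested genes 65.0% were called between these lines, 36.5% higher and 28.5% lower in B6TC, with a median of 0.04. Without the filter on low values 4 of 19 were called higher and 2 lower, with no share over all unfiltered genes to set beside them. With the probe sets of a gene averaged, 3 of the 9 were higher and 4 lower, at a median of 0.04. These averaged counts too have no share over all genes to set beside them. The differences of largest size were those of AKR1C3, STS, CYB5A and SRD5A1. AKR1C3, an aldo-keto reductase of steroid hormones, was lower in B6TC by the test (log2 difference −1.37, standard error 0.063, limma adjusted p = 1.37e-07). STS, steroid sulfatase, was higher by 0.83, CYB5A, an electron donor to steroid-forming enzymes, by 0.80, and SRD5A1, a steroid 5α-reductase, by 0.29. Against ZR-75-1, 4 of the 9 were higher, 4 lower and 1 not different, with a median of −0.08. Over all genes 84.4% were called there, 42.8% higher and 41.6% lower, with a median near 0. The aldo-keto reductases AKR1C3, AKR1C1 and AKR1C2 exceeded their ZR-75-1 levels by 6.10, 3.34 and 2.36, and POR, which passes electrons to cytochrome P450 enzymes, was lower at −0.97. MDA-MB-231 differed from ZR-75-1 at these genes by 7.47, 3.08, 2.24 and −0.68, so the directions are not particular to B6TC. AKR1C genes are close copies of each other, and their probe sets may share signal.

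NR3C1, the glucocorticoid receptor gene, was high in all lines. At 201865_x_at, its probe set with the highest mean, it was at 10.08, 10.07 and 10.18 in B6TC, at 10.29, 10.35 and 10.39 in MDA-MB-231 and at 9.06, 9.04 and 9.04 in ZR-75-1. B6TC thus lay just below MDA-MB-231 and well above ZR-75-1, without overlap. The difference was −0.23 from MDA-MB-231 (standard error 0.048, limma adjusted p = 0.00168) and 1.06 from ZR-75-1 (standard error 0.048, limma adjusted p = 6.68e-09). All 4 tested probe sets were above ZR-75-1 in B6TC, by 1.06 to 1.60. They disagreed in direction against MDA-MB-231. Probe set 201866_s_at was lower in B6TC at −0.77 (limma adjusted p = 7.61e-07), 211671_s_at was at −0.10 and did not pass (limma adjusted p = 0.122), and 216321_s_at was higher at 0.25 (limma adjusted p = 0.0258). The last of these was no longer called without the first or the second B6TC array, or without the second or the third MDA-MB-231 array, at 0.17 to 0.24, and neither was it without the filter. A further probe set, 232431_at, missed the filter.

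NR3C2 encodes the mineralocorticoid receptor, which also binds cortisol and is closely related to the glucocorticoid receptor. Its probe set 205259_at was at 7.30, 7.68 and 7.34 in B6TC, at 5.52, 5.52 and 5.35 in MDA-MB-231 and at 4.72, 4.59 and 4.64 in ZR-75-1. B6TC stood above both lines on every array. Its mean lay 1.97 above MDA-MB-231, and 2.79 above ZR-75-1. NR3C2 passed the filter only through the B6TC arrays, where it is high, so these differences are a description with no test. PGR, the progesterone receptor gene, did not pass the test against MDA-MB-231, at 0.20 (limma adjusted p = 0.0897), and was far lower in B6TC cells than in ZR-75-1 cells, at −5.28. PGR passed the filter only through ZR-75-1, so its difference from that line is a description. At its probe set with the highest mean, ESR1 was at −0.33 from MDA-MB-231 (limma adjusted p = 0.0686) and lower than in ZR-75-1 at −0.89. The size of the latter depends on the probe set. At 205225_at, given above, ESR1 was at 3.50 to 4.26 in B6TC and at 10.09 to 10.25 in ZR-75-1. The androgen receptor gene was not analysed here.

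Against MDA-MB-231 the receptor and response genes gave small differences in both directions. With 1 probe set per gene, 6 of the 9 genes other than HSD11B1 were tested. B6TC was higher at 5 of these 6, namely SGK1, KLF9, TSC22D3, DUSP1 and FKBP5, by 0.19 to 0.43, and lower at NR3C1. The median over the 6 was 0.37, beside 0.04 over all tested genes, of which 65.0% were called and 36.5% called higher. No difference reached 2-fold. Over the 14 probe sets of these genes, 6 were higher, 5 lower and 3 not different, that is 78.6% called beside 65.1% of all tested probe sets. Where the probe sets of a gene were averaged, rather than the brightest used, 3 genes were higher and 2 lower. The share over all averaged genes is not given here, so these counts stand without a baseline.

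Against ZR-75-1 the differences were larger and again went both ways. B6TC was higher at 4 of the 6 genes, namely SGK1, DUSP1, KLF9 and NR3C1, lower at TSC22D3 and not different by the test at FKBP5, with a median of 1.10. Over all tested genes 84.4% were called, 42.8% higher and 41.6% lower. Of the 14 probe sets 9 were higher, 4 lower and 1 not different, that is 92.9% called beside 83.7% of all. Both comparisons use the same B6TC arrays. Between MDA-MB-231 and ZR-75-1, where HSD11B1 was near background in both, 4 of the 6 genes were higher in MDA-MB-231 and 2 lower, with a median of 1.01, beside 84.4% called of all genes, 42.5% higher and 41.9% lower.

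**Figure D2:**
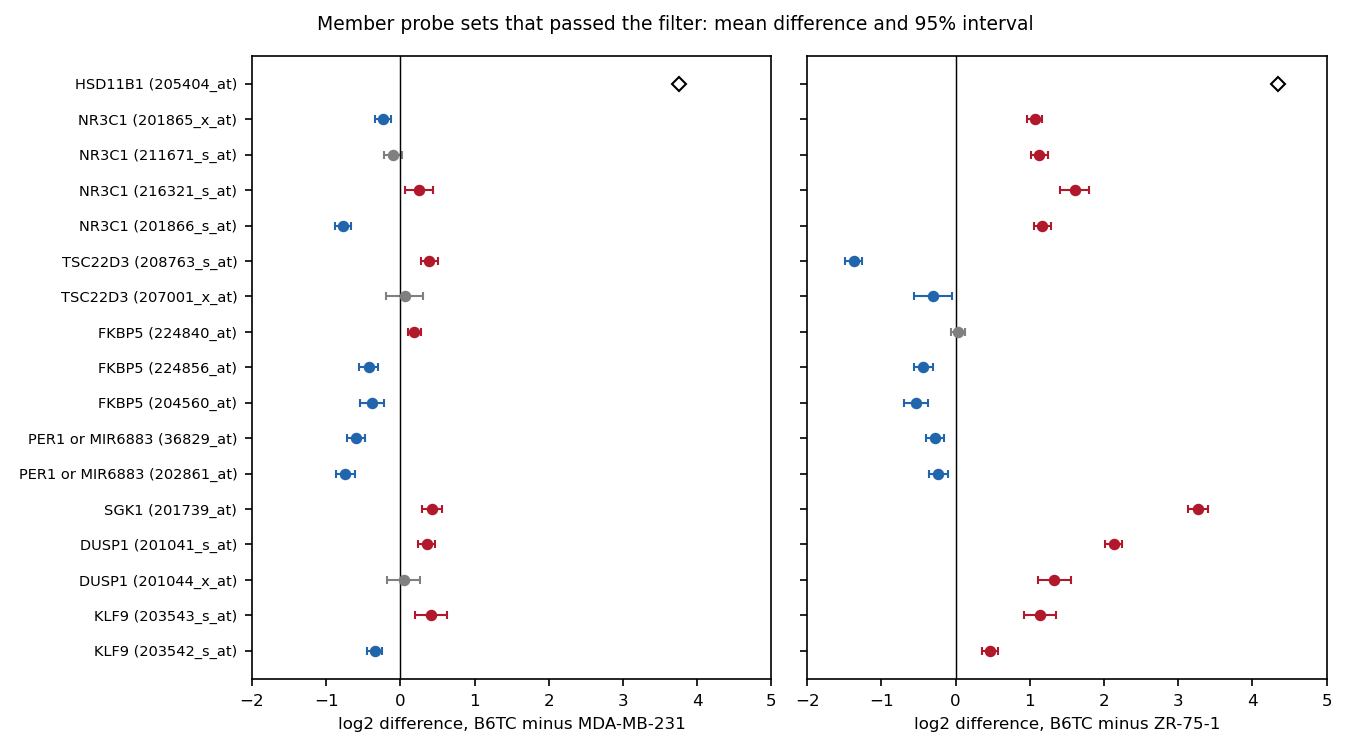
Log2 difference (horizontal axis) of B6TC from MDA-MB-231 on the left and from ZR-75-1 on the right for each member probe set that passed the filter, with 95% intervals of the limma fit; red is higher, blue lower and grey not called, and the open diamond of HSD11B1 has no test. Against MDA-MB-231 all differences but that of HSD11B1 lie between −0.77 and 0.43, and against ZR-75-1 they lie between −1.37 and 3.27.

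SGK1 encodes a kinase that glucocorticoids and mineralocorticoids induce and that acts on ion channels and cell survival. Its probe set 201739_at was at 9.79, 9.70 and 9.75 in B6TC, at 9.28, 9.37 and 9.30 in MDA-MB-231 and at 6.58, 6.36 and 6.49 in ZR-75-1. B6TC lay above MDA-MB-231 by a small step without overlap, and both lay far above ZR-75-1. The difference was 0.43 from MDA-MB-231 (1.35-fold, standard error 0.061, limma adjusted p = 0.000145) and 3.27 from ZR-75-1 (9.64-fold, limma adjusted p = 1.28e-11). MDA-MB-231 itself was 2.84 above ZR-75-1 (limma adjusted p = 3.36e-11).

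DUSP1 encodes a phosphatase that switches off MAP kinases and carries part of the anti-inflammatory action of glucocorticoids. At 201041_s_at it was at 9.24, 9.16 and 9.20 in B6TC, at 8.84, 8.84 and 8.86 in MDA-MB-231 and at 7.16, 7.07 and 6.99 in ZR-75-1. The order of the lines was that of SGK1, and B6TC exceeded MDA-MB-231 by a difference of 0.36 (limma adjusted p = 0.00015, standard error 0.051) and ZR-75-1 by one of 2.13 (limma adjusted p = 6.61e-11). At 201044_x_at the B6TC and MDA-MB-231 arrays overlapped, with a difference of 0.05 (95% interval −0.18 to 0.27, limma adjusted p = 0.694), while B6TC was higher than ZR-75-1 by 1.33. Probe set 226578_s_at missed the filter.

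KLF9, a zinc finger transcription factor that glucocorticoids and thyroid hormone induce, gave opposite directions against MDA-MB-231 at its 2 tested probe sets. At 203543_s_at it was at 6.80, 7.01 and 6.84 in B6TC, at 6.63, 6.30 and 6.46 in MDA-MB-231 and at 5.77, 5.61 and 5.87 in ZR-75-1. B6TC was higher there by 0.42 than in MDA-MB-231 (standard error 0.095, limma adjusted p = 0.00327) and by 1.13 than in ZR-75-1 (limma adjusted p = 1.03e-06). At 203542_s_at it was at 5.77, 5.66 and 5.74 in B6TC, at 6.06, 6.08 and 6.07 in MDA-MB-231 and at 5.27, 5.30 and 5.19 in ZR-75-1. The means there differed by −0.35 from MDA-MB-231 and by 0.47 from ZR-75-1. This probe set passed the filter only through MDA-MB-231, where it is highest, so its difference from that line is a description although it stands in the counts of probe sets. In ZR-75-1 both probe sets were below 6. The remaining 3 probe sets of KLF9 missed the filter.

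TSC22D3 encodes GILZ, the glucocorticoid-induced leucine zipper, which binds and restrains inflammatory transcription factors. Probe set 208763_s_at was at 7.69, 7.66 and 7.68 in B6TC, at 7.36, 7.29 and 7.22 in MDA-MB-231 and at 9.04, 9.12 and 8.99 in ZR-75-1. ZR-75-1, which had the lowest SGK1 and DUSP1, had the highest TSC22D3. B6TC was higher than MDA-MB-231 by 0.39 (1.31-fold, standard error 0.051, limma adjusted p = 9.69e-05) and lower than ZR-75-1 at −1.37 (2.59-fold, limma adjusted p = 1.72e-09). At 207001_x_at the difference from MDA-MB-231 was 0.06 (95% interval −0.20 to 0.31, limma adjusted p = 0.684) and that from ZR-75-1 was −0.30 (limma adjusted p = 0.0281). The call against ZR-75-1 was lost without the filter and without the first B6TC, the third B6TC or the second ZR-75-1 array, at −0.22 to −0.30. Probe set 235364_at missed the filter.

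FKBP5 encodes FKBP51, a chaperone partner that lowers the affinity of the receptor for cortisol and that the receptor induces in turn. Its level was close to equal in all lines at 224840_at, at 9.44, 9.47 and 9.50 in B6TC, at 9.27, 9.27 and 9.30 in MDA-MB-231 and at 9.45, 9.41 and 9.45 in ZR-75-1. B6TC was higher than MDA-MB-231 by 0.19 (limma adjusted p = 0.00217, standard error 0.040). The difference from ZR-75-1 was 0.03 (95% interval −0.06 to 0.12, limma adjusted p = 0.446). The other probe sets of FKBP5 ran the other way. At 224856_at it was at 8.09, 8.03 and 8.09 in B6TC, at 8.61, 8.49 and 8.39 in MDA-MB-231 and at 8.52, 8.50 and 8.48 in ZR-75-1, and B6TC was lower than each at −0.43 (standard error 0.058, limma adjusted p = 0.000108 and 4.31e-05). At 204560_at B6TC was also lower, at −0.38 from MDA-MB-231 (limma adjusted p = 0.0011) and −0.53 from ZR-75-1 (limma adjusted p = 5.73e-05).

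SGK1 and FKBP5 are the members whose promoter windows held a half-site, and 30 bases around it are shown with the half-site in capitals (GRCh38.p14, minus strand, chr6:134177839-134177868 for SGK1 and chr6:35728566-35728595 for FKBP5).
SGK1: ggggttcataacAGAACAgggatagccgtc
FKBP5: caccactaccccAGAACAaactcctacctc
Counting the first transcribed base as 1, the half-site began at position 6 in SGK1, in 1 of its 3 windows, and at position 1 in FKBP5, in 1 of its 2. A match of letters is no evidence of binding.

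PER1, a clock gene that glucocorticoids induce, was read only by probe sets that also name MIR6883. At 36829_at the level was 6.73, 6.75 and 6.84 in B6TC, 7.47, 7.32 and 7.33 in MDA-MB-231 and 7.05, 7.04 and 7.08 in ZR-75-1. B6TC was the lowest of the lines on every array, at −0.60 from MDA-MB-231 (standard error 0.054, limma adjusted p = 7.38e-06) and −0.28 from ZR-75-1 (limma adjusted p = 0.000661). Probe set 202861_at was also lower in B6TC, at −0.74 from MDA-MB-231 (limma adjusted p = 2.64e-06) and −0.23 from ZR-75-1 (limma adjusted p = 0.00355). The other two missed the filter.

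ZBTB16 encodes PLZF, a zinc finger repressor that glucocorticoids induce strongly in many cells. At 205883_at it was at 3.72, 3.26 and 3.69 in B6TC, at 3.69, 3.38 and 3.69 in MDA-MB-231 and at 3.51, 3.69 and 3.69 in ZR-75-1. The arrays of all lines overlapped below the median of the array, and it was not tested.

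**Figure D3:**
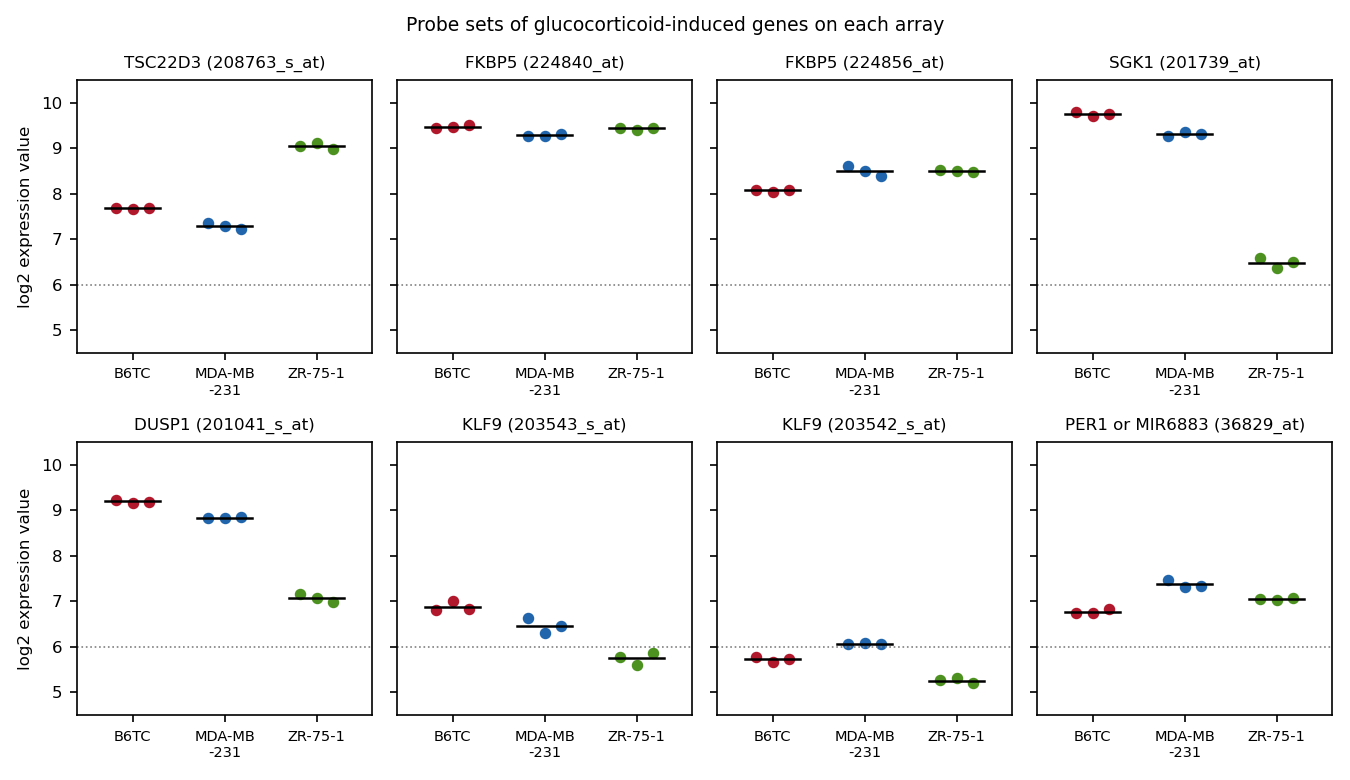
Log2 expression values (vertical axis) on the 3 arrays of each line for 8 probe sets of glucocorticoid-induced genes, with B6TC on the left; points are arrays, bars are means and the dotted line is the filter level of 6. SGK1 and DUSP1 are low in ZR-75-1, TSC22D3 is highest there, the pairs of FKBP5 and KLF9 probe sets differ in direction between B6TC and MDA-MB-231, and the PER1 or MIR6883 probe set is lowest in B6TC.

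Other genes that glucocorticoids induce in various tissues were more often higher than lower in B6TC. Of 40 on this list 28 were tested. Against MDA-MB-231, 14 were higher, 6 lower and 8 not different by the test, with a median of 0.26, beside 36.5% higher and 28.5% lower over all genes. Without the filter 15 of 38 were higher and 10 lower, and the median was 0.07, with no share over all unfiltered genes to set beside them. GLUL, glutamine synthetase, was at 10.52, 10.53 and 10.53 in B6TC and at 8.86, 8.76 and 8.90 in MDA-MB-231, a difference of 1.69 (standard error 0.056, limma adjusted p = 2.04e-08). In ZR-75-1 GLUL was at 11.26, 11.17 and 11.34, above both. CRISPLD2, a secreted protein that glucocorticoids induce in airway smooth muscle, was lower in B6TC at −1.47 (limma adjusted p = 3.65e-08). SPSB1, a ubiquitin ligase adaptor, was at −0.82. It passed the filter only through MDA-MB-231, where it is highest, so this difference is a description although it stands in the counts. BCL6, a transcriptional repressor, was higher by 0.77.

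Against ZR-75-1, 19 of the 28 were higher in B6TC, 6 lower and 3 not different, with a median of 1.36, beside 42.8% higher and 41.6% lower over all genes. PER2 and NEDD9, both among those called lower, passed the filter only through ZR-75-1, where they are high. Their differences from that line are thus a description although they stand in the counts. Of the 28, 10 had a mean under 6 in ZR-75-1, and 9 of those 10 were at 6 or more in B6TC. Among the 15 at 6 or more in both lines, 9 were higher and 3 lower. The share over all genes at 6 or more in both lines is not given here. The differences of largest size were those of ANXA1, a phospholipid-binding protein of anti-inflammatory action, at 9.37, SNAI2, a repressor of epithelial genes, at 6.26, ERRFI1, an inhibitor of EGFR signaling, at 4.03, and RGS2, a regulator of G protein signaling, at 3.34. ANXA1, SNAI2 and RGS2 were below the array median in ZR-75-1, so their differences may understate the change and their order is not firm. All were also high in MDA-MB-231, from which ANXA1 differed by 0.26, SNAI2 by 0.66, ERRFI1 by 0.41 and RGS2 by 0.26. Mesenchymal markers moved with these genes, at an array mean of 11.53 to 11.54 in B6TC, 11.40 to 11.46 in MDA-MB-231 and 4.97 to 5.09 in ZR-75-1, and their part in the difference was not tested. The metallothionein genes MT2A and MT1X, named after their values were seen, were higher in B6TC by 0.39 and 0.36 than in MDA-MB-231 and by 2.45 and 2.77 than in ZR-75-1, and metallothioneins are close copies of each other.

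Most tested genes of a list of inflammatory genes that glucocorticoids are known to repress were higher in B6TC. Of 23 on this list 11 were tested. Against MDA-MB-231, 9 were higher, 1 lower and 1 not different, with a median of 1.29, beside 65.0% of all genes called, 36.5% higher and 28.5% lower. Against ZR-75-1, 10 rose and 1 fell, at a median of 2.85, beside 84.4% called of all genes, 42.8% higher and 41.6% lower. Some genes of this list were also higher in MDA-MB-231 than in ZR-75-1, with values given below. Of the 11, 5 had a mean under 6 in MDA-MB-231 and 9 had one in ZR-75-1, so that many passed the filter through B6TC. For genes that passed through B6TC alone, the calls are a description although they stand in these counts. Among the 6 genes at 6 or more in both B6TC and MDA-MB-231, 5 were higher and 0 lower, at a median of 0.98. Only 1 gene was at 6 or more in both B6TC and ZR-75-1, and it was higher. The share over all genes at such levels is not given here. Without the filter 22 were tested, and 12 of them were called against MDA-MB-231, each higher in B6TC, at a median of 0.34. Against ZR-75-1, 14 were then higher and 2 lower, at a median of 0.63. The share of all genes called without the filter is not given here, so these unfiltered counts stand without a baseline.

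MMP1, interstitial collagenase, was at 13.42, 13.42 and 13.40 in B6TC, at 7.80, 7.76 and 8.02 in MDA-MB-231 and at 2.82, 2.98 and 2.66 in ZR-75-1. Its mean in B6TC exceeded that in MDA-MB-231, with a difference of 5.56 (standard error 0.086, limma adjusted p = 2.41e-10) and that in ZR-75-1, with one of 10.60 (limma adjusted p = 1.25e-13). MMP3 was at 7.62, 7.58 and 7.64 in B6TC, at 3.41, 3.26 and 3.31 in MDA-MB-231 and at 3.12, 2.94 and 3.15 in ZR-75-1. Both proteases were apart from the other lines on every array. PTGS2, the inducible cyclooxygenase, was higher by 1.93 than in MDA-MB-231 and by 5.26 than in ZR-75-1. IL1B, an inflammatory cytokine, was at 7.14, 7.21 and 7.02 in B6TC, at 5.16, 5.65 and 5.56 in MDA-MB-231 and at 5.35, 5.30 and 5.35 in ZR-75-1, a difference of 1.67 from MDA-MB-231. IL11, a cytokine of the IL-6 family, was 4.97 above ZR-75-1 and 0.22 above MDA-MB-231. MDA-MB-231 itself was above ZR-75-1 by 4.75 at IL11, by 5.04 at MMP1 and by 3.33 at PTGS2. An excess over ZR-75-1 at these genes is thus not particular to B6TC. At IL1B and MMP3, where both lines were below 6, MDA-MB-231 differed from ZR-75-1 by 0.12 and 0.26. MMP9, gelatinase B, was the gene called lower, at −0.16 against MDA-MB-231 and at −1.29 against ZR-75-1. It passed the filter only through ZR-75-1, so its difference from that line is a description. Leukocyte markers were below 6 in every line (0 of 6).

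**Figure D4:**
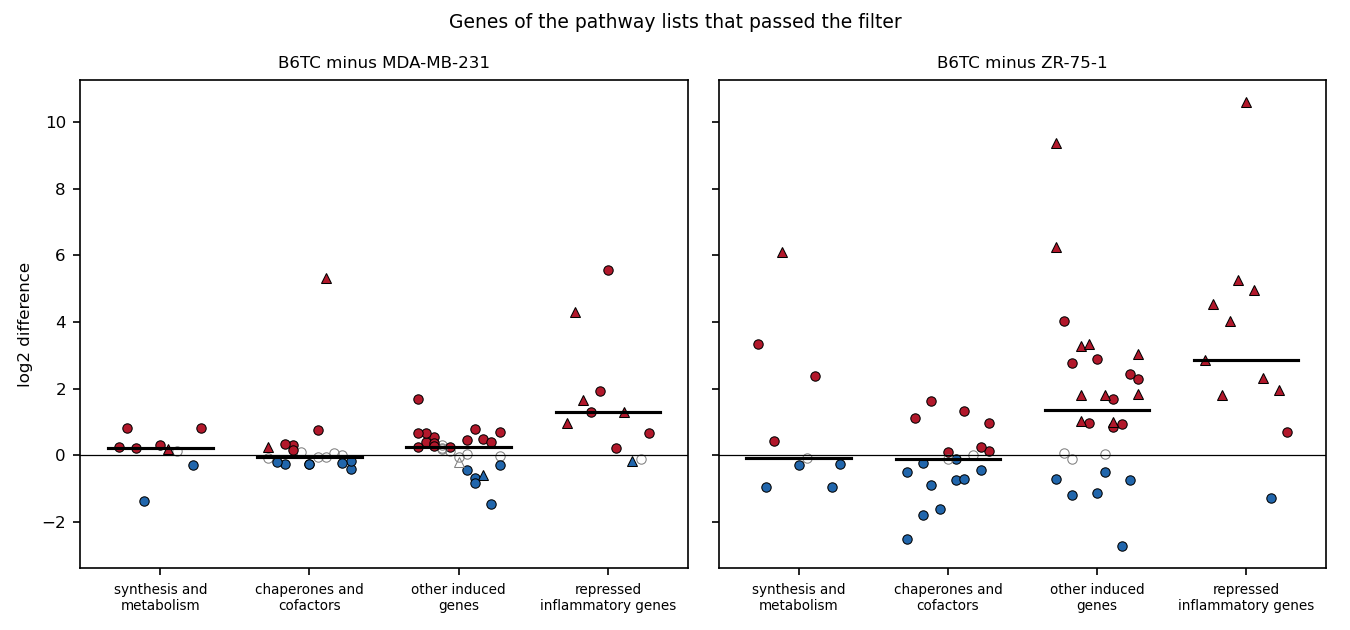
Log2 differences (vertical axis) of B6TC from MDA-MB-231 on the left and from ZR-75-1 on the right for the tested genes of 4 pathway lists; red is called higher, blue called lower, open grey not called, triangles have a mean under 6 in the parental line and bars are medians. The repressed inflammatory genes have the highest medians, 1.29 and 2.85, and most of their points on the right are triangles. Some of these genes, IL1B and MMP3 among them, passed the filter through B6TC alone. Without the filter the medians of this list were 0.34 and 0.63.

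Chaperones and cofactors of the receptor were called about as often as genes in general, in both directions. Of 24 on the list 19 were tested, and against MDA-MB-231 6 were higher in B6TC, 7 lower and 6 not different, with a median of −0.07. That is 68.4% called, beside 65.0% of all genes. NRIP1, a corepressor of nuclear receptors, was at 8.52, 8.52 and 8.47 in B6TC, at 3.36, 2.87 and 3.33 in MDA-MB-231 and at 9.13, 9.27 and 9.23 in ZR-75-1. Its excess in B6TC over MDA-MB-231 was 5.31 (standard error 0.11, limma adjusted p = 1.21e-09), with the third B6TC array no higher than the others. EP300, a histone acetyltransferase, was higher by 0.74, SMARCA4, the ATPase of a chromatin remodeler, by 0.34, and DNAJB1, a heat shock cochaperone, was lower at −0.41. Against ZR-75-1, 7 were higher, 10 lower and 2 not different, with a median of −0.12, that is 89.5% called beside 84.4% of all genes. The coactivators NCOA2 and NCOA1 were lower at −2.52 and −1.63, FKBP4, the cochaperone that opposes FKBP5, was lower at −1.81, and PPID, a cyclophilin of the receptor complex, was higher by 1.62. MDA-MB-231 differed from ZR-75-1 at these genes by −2.77, −1.73, −1.55 and 1.46, so the differences are not particular to B6TC. HSP90AA1, the chaperone that holds the receptor ready for hormone, was named after its values were seen and was within 0.01 of MDA-MB-231 (limma adjusted p = 0.853) and 0.25 above ZR-75-1.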

How the data were processed

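Each of the cell lines was measured on 3 arrays, technical replicates grouped by the sample labels. The authors deposited log2 expression values made, per the submitters' notes, with Affymetrix Expression Console and RMA (versions not given), whereas the methods name GC-RMA; neither step could be rerun from the values. No depth applies to arrays, and their number limits the precision. The labels and methods name different RNA purification kits.

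Probe sets were named by the platform annotation with symbols checked against GRCh38.p14. A gene was represented by its tested probe set of 1 symbol with the highest mean. limma 3.58.1 in R 4.3.3 was fitted to all 9 arrays, without the 62 control probe sets, and p-values were adjusted by Benjamini and Hochberg over 21095 probe sets at 0.05. All the other 9 members were to be tested; HSD11B2 and ZBTB16 missed the filter and PER1 has no probe set of its own, which left 6. The named genes were the members, the related steroid receptors, the 4 genes of each list with the largest differences among those called without overlap of arrays, and the 5 nearest to HSD11B1. Members and lists were chosen with earlier results of these data known. Replicate numbers did not pair the arrays. The procedure was tested on simulated data. Alternatives are given in the closing section.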

Additional observations from a re-analysis of the deposited data

How the results depend on the processing

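With a minimum difference of 1 on the log2 scale, the counts fell. How many of all tested genes would pass this minimum is not given here, so the fall has no baseline and is not particular to these lists. Regardless of sign, the median difference over all tested genes was 0.25 for B6TC against MDA-MB-231. It was 0.61 for B6TC against ZR-75-1, and both medians are under the minimum. Against MDA-MB-231, 0 of the 6 called members remained, 1 of 8 genes of synthesis and metabolism, 1 of 13 chaperones and cofactors, 2 of 20 other induced genes and 6 of 10 repressed inflammatory genes. Against ZR-75-1, 3 of 8 genes of synthesis and metabolism and 6 of 17 chaperones and cofactors remained. All other numbers of genes called, both directions together, stayed within 1.5 times of those reported, without the filter, with robust regression, with variances shrunk robustly along a trend, with each array centered on its median, with a further quantile normalization, with a fit to only the lines compared, with the probe sets of a gene averaged and with each array left out. Without the filter more genes were tested, so like numbers called were then smaller shares. Against MDA-MB-231, 12 of 22 repressed inflammatory genes were called, in place of 10 of 11. Of the genes of synthesis and metabolism 6 of 19 were called, in place of 8 of 9. Averaged probe sets gave 3 members higher and 2 lower than in MDA-MB-231, in place of 5 and 1, and 3 genes of synthesis and metabolism higher and 4 lower, in place of 6 and 2. The share over all averaged genes is not given here. Without the filter 10 other induced genes were lower than in MDA-MB-231, in place of 6. Leaving out each array gave 6 members called against MDA-MB-231, 5 against ZR-75-1 and 6 between the other lines each time.

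Of the differences of single probe sets, 748 values under alternatives kept direction and any call, 10 lost the call, 5 gained it and 5 changed sign. The 748 include the values of HSD11B1, which chose the set and had no call to keep against MDA-MB-231 or ZR-75-1. They also include those of NR3C2, which passed the filter only through B6TC, so 748 is not a count of tested differences alone. The sign changed for FKBP5 at 224840_at against ZR-75-1, to −0.036 under a further quantile normalization, for DUSP1 at 201044_x_at against MDA-MB-231, to −0.067 without the second B6TC array (range without each array −0.067 to 0.111), and for TSC22D3 at 207001_x_at against MDA-MB-231, to −0.076 without the first MDA-MB-231 array (range −0.076 to 0.130). Between MDA-MB-231 and ZR-75-1, FKBP5 at 224856_at was at 0.049 without the third MDA-MB-231 array and at 0.0044 without the first ZR-75-1 array (range −0.063 to 0.049). None of these differences had passed the test, and the cause was not tested.

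Arrays with the same replicate number did not deviate together, with correlations of −0.10 to 0.18 over 9 pairs, of which 1 was over 0.1. A fit with the replicate number as a block left the counts of members called at 6, 5 and 6, and among the differences of single probe sets it changed the call of FKBP5 at 204560_at between MDA-MB-231 and ZR-75-1, at −0.15 (limma adjusted p = 0.0398, against 0.0843 without the block).

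Signal near background limits every value under 6, among them HSD11B1, NR3C2 and MMP3 outside B6TC, HSD11B2 and ZBTB16 in all lines, MMP1, PTGS2, ANXA1, SNAI2 and AKR1C3 in ZR-75-1, NRIP1 in MDA-MB-231 and PGR outside ZR-75-1. All p-values rest on technical replicates of 1 culture state per line, and the response to added hormone was not measured.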

Other observations

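Some genes of the lists missed the filter but were not level over the arrays. CXCL2, a neutrophil-attracting chemokine, was at 6.12, 6.28 and 5.24 in B6TC, at 5.02, 4.88 and 4.99 in MDA-MB-231 and at 3.63, 3.84 and 3.34 in ZR-75-1, with the third B6TC array below the others. FOXO1, a transcription factor that glucocorticoids induce in muscle and liver, was at 6.14, 6.01 and 5.81 in B6TC, at 5.15, 5.00 and 5.18 in MDA-MB-231 and at 5.53, 5.64 and 5.53 in ZR-75-1. For both genes the B6TC arrays stood above those of the other lines. IL6 was at 5.08, 4.89 and 5.11 in B6TC, at 4.55, 4.76 and 4.47 in MDA-MB-231 and at 4.47, 4.65 and 4.33 in ZR-75-1. SCNN1A and PCK1, from the list of other induced genes, went the other way. The highest B6TC array of SCNN1A, at 5.78, was below the lowest array of the other lines, at 5.88. For PCK1 the same arrays were at 2.41 and 2.50. PDK4 and ANGPTL4 were lower than MDA-MB-231 without overlap, and CCL20 and CXCL3 were higher than both lines. All these genes were chosen after their values were seen, and none was tested. The share of all probe sets below the filter that stand apart like this is not given here.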
